A study of Mus musculus with 20 samples.

Results

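Extracellular nucleotides signal to dendritic cells through the ATP-gated P2X channels and the G protein-coupled P2Y receptors, while adenosine acts on the Adora receptors. The ectonucleotidase Entpd1 (CD39) lies between these arms, because it degrades ATP and ADP to AMP, from which adenosine is then made. In dendritic cells and macrophages ATP at P2X7 is a classical trigger of the NLRP3 inflammasome, nucleotides released by dying cells attract phagocytes through P2Y2, and adenosine at the Gs-coupled receptors encoded by Adora2a and Adora2b raises cAMP and restrains cytokine output. The 9 genes described here are P2rx4, P2rx7, P2ry2, P2ry6, P2ry14, Adora2a, Adora2b, Adora3 and Entpd1. They were chosen by symbol, with earlier results of these data known, and 9 of 9 were found among the 24421 genes of the count table.

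The RNA-seq comprised 20 libraries of murine bone marrow-derived dendritic cells (BMDCs) from 5 wild-type C57BL/6 mice, A to E, whose marrow was cultured in the presence of 40 ng/mL GM-CSF over 8 days. Each culture received I-BET151 (iBET, a small-molecule inhibitor of the BET bromodomain proteins) at 3.3 μM or 5% DMSO as solvent control, and ovalbumin alone (Ova) or ovalbumin opsonized with rabbit IgG into immune complexes (IC), for 4 hours. Each of the 4 groups (iBET IC, iBET Ova, DMSO IC and DMSO Ova) holds 5 libraries, 1 of every mouse. The methods state that both sexes were used in the experiments, and the age and the sex of each of the 5 mice are not given in the sources used here. The 5% DMSO is that of the labels, whereas the methods give 5% only for the solution used in vivo and a diluted DMSO stock for cultures. The labels do not give the DMSO content of the iBET wells. A difference in solvent between the wells can therefore not be told apart from the effect of iBET in any comparison below. The labels also describe iBET and stimulus as simultaneous where the methods place iBET before the stimulus. GM-CSF cultures of bone marrow are mixed, and the labels also mention sorting without naming a gate. Library totals ranged from 16447491 to 29245150 counts with a median of 21764663. All 9 genes passed the filter on low counts, as did 12465 of the 24421 genes listed. Hexim1, a gene known to rise under BET inhibition, lay between 22.2 and 33.4 CPM (counts scaled to the library size by TMM) in the 10 DMSO libraries and between 150.1 and 197 CPM in the 10 iBET libraries. Myc, the other gene chosen to check the iBET label, had a mean of 18.4 CPM in DMSO Ova and 31.3 CPM in iBET Ova. In IC its mean was 12.85 CPM with DMSO and 15.8 CPM with iBET, so the mean was not lower with iBET in either stimulus. Tnf, which Fcγ receptor crosslinking induces, had a mean of 9.22 CPM in DMSO Ova and 31.9 CPM in DMSO IC. With iBET its mean was 14.9 CPM in Ova and 32.0 CPM in IC.

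The summed level of 11 dendritic cell markers (Itgax, Cd74 and MHC class II genes among them) was 7660 to 11700 CPM in the DMSO libraries and 9400 to 14700 CPM in the iBET libraries, and none of these markers was at 0 in any group. The sum does not show how its members moved. With iBET 3 of the 10 tested passed in each stimulus, 1 higher and 2 lower, beside 56.6% of all genes in Ova and 56.1% in IC. The 10 had a median log2 fold change of -0.093 in Ova. Csf2rb, a chain of the GM-CSF receptor, rose from a mean of 2713 to 4282 CPM in Ova, while Flt3, the receptor of a dendritic cell growth factor, fell from 3.03 to 0.242 CPM and Dcstamp from 103 to 33.3 CPM. Markers of macrophages moved with iBET, and their sum was 1320 to 1990 CPM in DMSO Ova, 1400 to 1920 CPM in DMSO IC, 896 to 1270 CPM in iBET Ova and 952 to 1430 CPM in iBET IC. Of these 8 macrophage markers, 5 were lower and 1 was higher with iBET in Ova, and 4 were lower and 1 higher in IC. Over all genes tested, 28.9% were lower and 27.7% higher in Ova, and 29% and 27.1% in IC. Neutrophil markers summed to 12.1 to 52.6 CPM, mast cell and basophil markers to 10.3 to 45.9 CPM, eosinophil markers to 38.9 to 136 CPM, erythroid markers to 0.555 to 9.34 CPM and lymphocyte markers to at most 0.488 CPM. In bulk samples such as these, fewer cells of a type and less RNA per cell cannot be told apart, and the part of the macrophage and dendritic cell markers in the results was not tested. The mice differed in these markers too. In every group mice A and B lay below mice C, D and E, without overlap, for 6 of 10 dendritic cell markers (Cd74, H2-Ab1, H2-Aa, Flt3, Zbtb46 and Ccr7). The same held for 2 of 3 eosinophil markers, 2 of 5 neutrophil markers, 1 of 3 mast cell and basophil markers (Kit) and 1 of 1 erythroid marker (Hbb-bt). Mice A and B lay above the others for 4 of 8 macrophage markers (Csf1r, Mertk, Fcgr1 and Cd14). Of all genes tested, 7.9% were lower and 7.24% higher in mice A and B in this way, and among the 9 genes Adora2a was lower and P2rx7 higher.

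Transcription start windows of these genes (250 bases before the start and 50 after it, RefSeq, build GRCm38.p6, the same assembly as mm10) were found for 7 of the 9 genes, with 13 windows in all, those other than Adora2a and P2ry6. Only the first window of each of the following genes is printed, up to the first 30 bases of the transcript. P2rx4 and P2rx7 are neighbours with different responses. P2ry2 was the only one of the 9 that rose with iBET, and P2ry14 had the lowest log2 fold change of the 9. Capitals mark the letters of AP-1 (TGANTCA), of the core of the cAMP response element (TGACG), or of PU.1 (GAGGAA), each searched on both strands.
P2rx4 (chr5:122707294-122707573, plus strand): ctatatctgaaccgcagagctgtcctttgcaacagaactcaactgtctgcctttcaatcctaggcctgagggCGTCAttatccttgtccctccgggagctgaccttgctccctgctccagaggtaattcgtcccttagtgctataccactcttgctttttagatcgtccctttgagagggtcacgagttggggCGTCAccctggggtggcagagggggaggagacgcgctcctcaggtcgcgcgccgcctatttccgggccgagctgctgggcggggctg
P2rx7 (chr5:122643677-122643956, plus strand): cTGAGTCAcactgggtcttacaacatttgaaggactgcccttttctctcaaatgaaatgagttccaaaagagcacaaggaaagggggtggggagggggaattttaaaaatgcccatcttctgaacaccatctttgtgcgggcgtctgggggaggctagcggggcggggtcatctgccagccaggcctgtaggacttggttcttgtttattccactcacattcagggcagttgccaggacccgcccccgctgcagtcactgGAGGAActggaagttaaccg
P2ry2 (chr7:101012024-101012303, minus strand): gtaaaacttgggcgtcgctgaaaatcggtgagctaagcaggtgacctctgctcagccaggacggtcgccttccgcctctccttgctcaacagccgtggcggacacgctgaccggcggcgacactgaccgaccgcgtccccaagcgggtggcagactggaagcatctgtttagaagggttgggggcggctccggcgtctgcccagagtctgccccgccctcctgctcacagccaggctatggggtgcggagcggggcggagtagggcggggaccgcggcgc
P2ry14 (chr3:59153463-59153742, minus strand): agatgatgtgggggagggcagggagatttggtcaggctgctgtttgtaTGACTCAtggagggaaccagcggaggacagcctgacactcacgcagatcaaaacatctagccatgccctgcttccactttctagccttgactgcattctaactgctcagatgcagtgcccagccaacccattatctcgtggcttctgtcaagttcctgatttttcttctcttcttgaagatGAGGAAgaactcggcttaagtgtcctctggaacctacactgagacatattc

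The windows differed in CpG dinucleotides. P2rx4 held 18, P2ry2 held 28 and 30 in its overlapping windows, Adora2b held 27, and the first window of Entpd1 held 23, against a median of 7 over all 32851 windows. P2rx7 held 8 and 4, the windows of P2ry14 held between 1 and 4, and Adora3 held 1. The PU.1 letters were present in 8 of the 13 windows, against 28.3% of all windows, namely in each window of P2rx7 and P2ry14, in that of Adora3 and in the second of Entpd1, and they were absent from those of P2rx4, P2ry2 and Adora2b. AP-1 letters stood in 4 of the 13 windows (7.81% of all windows), namely in the first window of P2rx7, in the first and second of P2ry14 and in that of Adora3. The core of the cAMP response element stood in 3 of 13 (20.8% of all), at 178 and 57 bases before the start of P2rx4 and in both windows of Entpd1, while the full element (TGACGTCA, which contains the core) stood in 0 of 13 (1.79% of all). An E-box (CACGTG, the same on both strands) stood in both windows of P2ry2 (7.15% of all windows), beyond the printed stretch in the first. It is the same site in both, since these windows overlap. The NF-kB consensus stood in 0 of 13 (8.46% of all). These matches are letters in a window, windows of 1 gene can share bases, and nothing was measured at them here.

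In DMSO Ova the 9 genes spanned more than an order of magnitude in level per length. By CPM per kb of merged exon, P2ry6 came first at 28.5 ± 2.47 (SD, n = 5), before P2rx4 at 19.8 ± 2.49, Entpd1 at 12.6 ± 1.58, P2ry14 at 9.27 ± 3.21, P2rx7 at 8.95 ± 1.62, Adora2b at 7.20 ± 0.660, Adora2a at 5.64 ± 3.10, Adora3 at 1.71 ± 0.188 and P2ry2 at 1.48 ± 0.146. The ranges over mice did not overlap between P2ry6 and P2rx4, between P2rx4 and Entpd1 or between Adora2a and Adora3, and the other neighbours in this order overlapped. The order depended on the length used. Per kb of RefSeq mRNA exons P2rx4 (51.6) stood before P2ry6 (42.3) and P2ry14 (33.0). Under iBET the order changed, and in iBET IC P2rx4 stood first at 19.3 ± 1.80 CPM per kb of merged exon, with no overlap with Entpd1 at 5.14 ± 1.04. Adora2b at 4.99 ± 0.256, P2ry2 at 3.37 ± 0.486, P2ry6 at 2.84 ± 0.538, P2rx7 at 2.56 ± 0.497, Adora2a at 1.69 ± 1.09, P2ry14 at 1.54 ± 0.204 and Adora3 at 0.559 ± 0.0612 followed. The plot of CPM by library shows the values of every mouse.

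**Figure D1:**
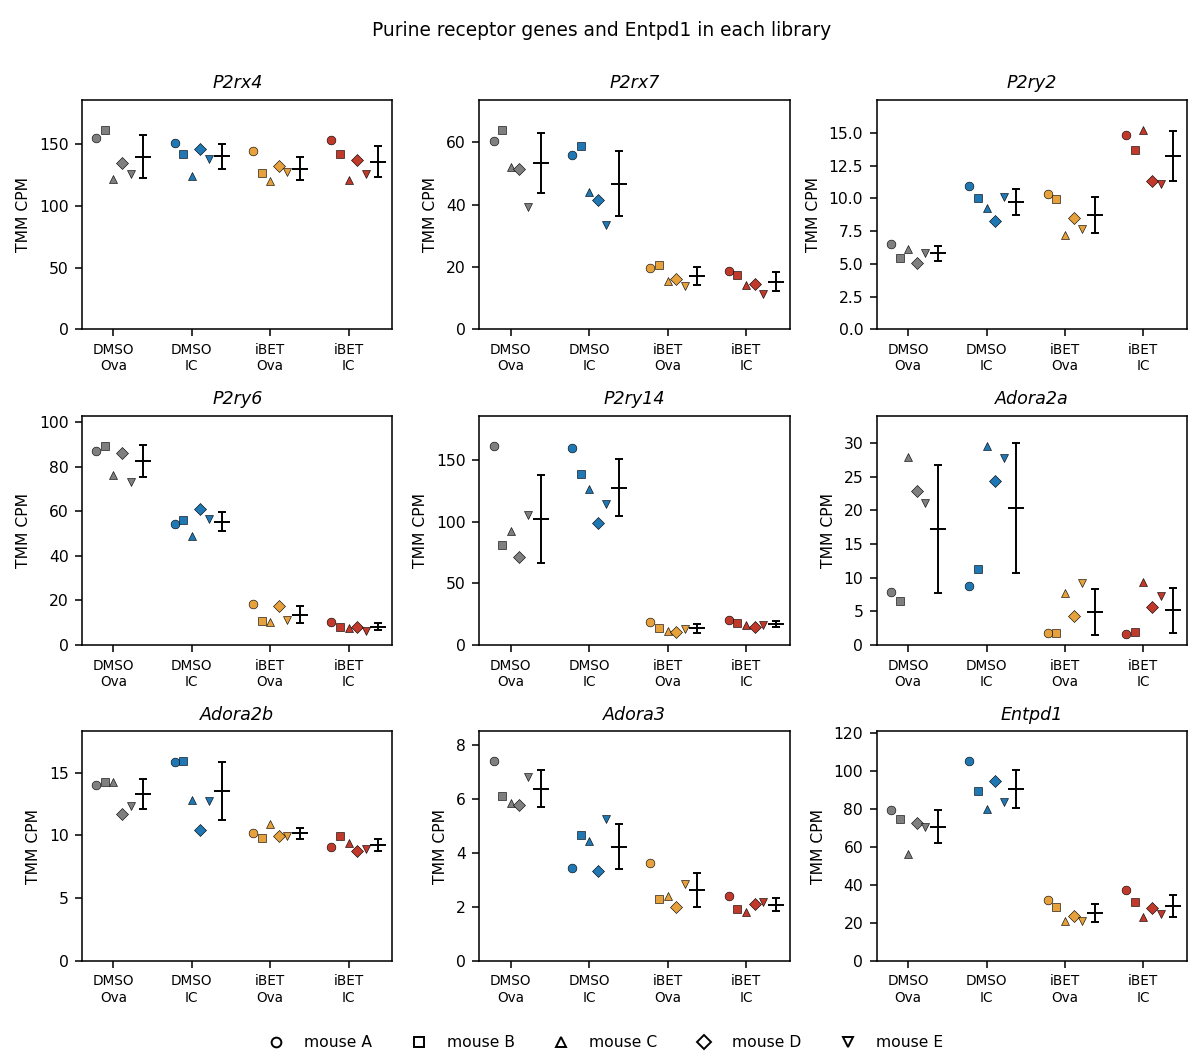
TMM-scaled CPM (y axis, linear from 0) of each of the 9 genes in the 20 libraries, by group (x axis); symbols are mice A to E, and the bar beside them is the mean ± SD of 5 mice. P2rx4 stays between 120.1 and 161 CPM in all 4 groups, P2ry2 is highest in iBET IC, and P2rx7, P2ry6, P2ry14, Adora3 and Entpd1 sit lower in every iBET library than in any DMSO library of the same stimulus.

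With iBET, 7 of the 9 genes fell, 1 rose (P2ry2) and P2rx4 did not pass the test, in Ova and in IC alike. In comparison, 56.6% of the 12465 genes tested changed with iBET in Ova (27.7% higher and 28.9% lower) and 56.1% in IC (27.1% higher and 29% lower). With the mouse as a block the same 8 genes passed, beside 68.7% and 68% of all genes. The median log2 fold change of the 9 genes was -1.48 in Ova and -1.60 in IC, against -0.00287 and -0.00537 over all genes tested. Adora2a passed although its DMSO and iBET groups overlapped. With IC against Ova, 3 genes passed in DMSO (P2ry2 higher, P2ry6 and Adora3 lower), beside 20.3% of all genes (9.59% higher and 10.7% lower), and 2 passed in iBET (P2ry2 higher, P2ry6 lower), beside 11.8% (5.19% higher and 6.63% lower). Scaling by library size alone in place of TMM moved the median of all genes to -0.131 with IC in DMSO and to -0.121 in iBET, and the split of calls from 1196 higher and 1335 lower to 582 and 2593 in DMSO, and from 647 and 827 to 313 and 2030 in iBET. With the mouse as a block 6 genes passed in DMSO (38.1% of all genes) and 5 in iBET (28.9% of all genes), since P2rx7 (lower), P2ry14 and Entpd1 (both higher) were added in each. The comparisons that share a control group are not independent of each other.

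**Figure D2:**
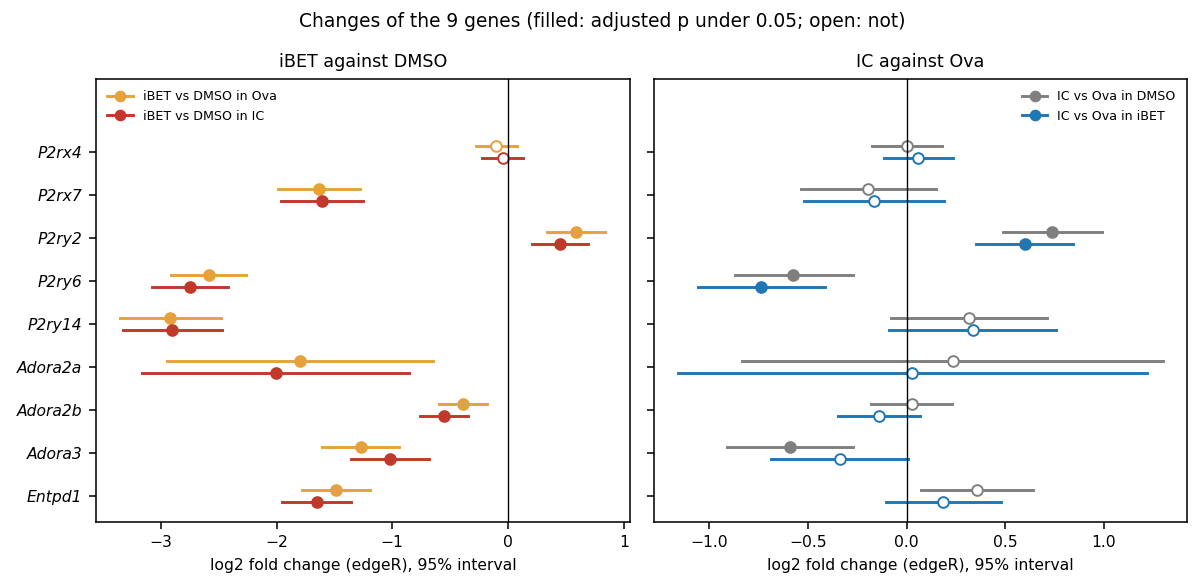
Log2 fold change of each gene by edgeR (x axis) with its 95% interval, for iBET against DMSO (left) and IC against Ova (right); filled points passed an adjusted p of 0.05 and open points did not. On the left only P2ry2 lies above 0 with a filled point, from 0.45 to 0.59, and P2ry14 and P2ry6 lie between -2.92 and -2.58; on the right P2ry2 and P2ry6 stand on opposite sides of 0.

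Of the P2X channels, P2rx7 was 3.1-fold lower with iBET in Ova and 3.04-fold lower in IC while its neighbour P2rx4 did not pass the test. Both lie on the plus strand of chromosome 5 in GENCODE M21 (GRCm38), P2rx7 at chr5:122643911-122691432 and P2rx4 at chr5:122707544-122729738, with 16112 bases between them. P2rx7 is the low-affinity ATP receptor coupled to the NLRP3 inflammasome, and it measured 60.6, 64.0, 52.1, 51.4 and 39.1 CPM in DMSO Ova (mice A to E) and 19.8, 20.8, 15.5, 16.1 and 14.0 CPM in iBET Ova. In DMSO IC its values were 55.8, 58.7, 44.0, 41.7 and 33.5 CPM and in iBET IC 18.8, 17.5, 14.4, 14.6 and 11.2 CPM. Every iBET library was below every DMSO library, and mouse E was lowest in each group. Mice A and B lay above mice C, D and E in every group, at 60.6 to 64.0 CPM against 39.1 to 52.1 CPM in DMSO Ova, as they did for 4 of 8 macrophage markers, and the part of those markers in the level of P2rx7 was not tested. The log2 fold change with iBET was -1.63 ± 0.17 (SE, adjusted p = 1e-07, edgeR) in Ova and -1.60 ± 0.17 (adjusted p = 1.26e-07) in IC. With IC the log2 fold change was -0.19 (adjusted p = 0.445) in DMSO and -0.17 (adjusted p = 0.602) in iBET, lower in 5 of 5 mice in both. Blocking on the mouse, these changes of -0.20 and -0.18 passed, with adjusted p = 0.0031 and 0.0203.

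P2rx4, a more sensitive ATP-gated cation channel found on endolysosomes and the cell surface, measured 154, 161, 122, 135 and 125 CPM in DMSO Ova and 144, 126, 120.1, 132 and 127 CPM in iBET Ova. It measured 150.2, 141, 124, 146 and 138 CPM in DMSO IC and 152, 141, 121, 137 and 126 CPM in iBET IC, and all groups overlapped. Its log2 fold change with iBET was -0.10 (95% interval -0.28 to 0.07, adjusted p = 0.314) in Ova and -0.05 (-0.22 to 0.13, adjusted p = 0.67) in IC, and with IC it was 0.00 (-0.17 to 0.18) in DMSO and 0.06 (-0.12 to 0.24) in iBET. Per kb of merged exon, the ratio of P2rx7 to P2rx4 was 0.45 ± 0.0503 in DMSO Ova and 0.156 ± 0.0242 in iBET Ova, and 0.393 ± 0.0814 in DMSO IC and 0.132 ± 0.0173 in iBET IC (SD, n = 5). The ratio depends on the length used. Per kb of RefSeq mRNA exons P2rx7 and P2rx4 had means of 9.67 and 51.6 CPM in DMSO Ova and of 3.12 and 48.1 CPM in iBET Ova. The next gene on the other side of P2rx4, Camkk2, lies 1432 bases away on the other strand and fell with iBET by 1.17 on the log2 scale in Ova and by 0.84 in IC.

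The neighbouring pair P2ry2 and P2ry6 moved in opposite directions, with iBET and with IC. They lie next to each other on the minus strand of chromosome 7, P2ry2 at chr7:100996568-101012866 and P2ry6 at chr7:100937630-100974649, with 21919 bases between them. P2ry2, the Gq-coupled receptor of ATP and UTP, measured 6.53, 5.45, 6.17, 5.08 and 5.80 CPM in DMSO Ova and 10.9, 10.0, 9.24, 8.24 and 10.1 CPM in DMSO IC. With iBET it measured 10.3, 9.98, 7.17, 8.51 and 7.66 CPM in Ova and 14.8, 13.7, 15.2, 11.3 and 11.1 CPM in IC. It was thus higher with IC than with Ova and higher with iBET than with DMSO in 5 of 5 mice, and none of these pairs of groups overlapped. The log2 fold change was 0.59 ± 0.12 (SE, adjusted p = 0.000348) for iBET in Ova, 0.45 ± 0.12 (adjusted p = 0.0028) for iBET in IC, 0.74 ± 0.12 (adjusted p = 0.000274) for IC in DMSO and 0.60 ± 0.12 (adjusted p = 0.0023) for IC in iBET. Its place among all genes was higher for IC than for iBET, since 98.1% of the genes tested had a lower fold change with IC in DMSO, and 87.3% with iBET in Ova. In mice A and B alone the log2 fold change with IC in iBET was 0.50 with adjusted p = 0.0815.

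P2ry6, the Gq-coupled receptor of UDP, which is known for its part in phagocytosis by microglia, measured 86.9, 89.3, 76.4, 86.1 and 73.1 CPM in DMSO Ova and 54.5, 56.1, 48.8, 60.9 and 56.5 CPM in DMSO IC. It measured 18.5, 10.9, 10.4, 17.3 and 11.2 CPM in iBET Ova and 10.6, 8.26, 7.71, 8.20 and 6.23 CPM in iBET IC, with no overlap between DMSO and iBET. The log2 fold change with iBET was -2.58 ± 0.15 (adjusted p = 4.65e-11) in Ova and -2.75 ± 0.16 (adjusted p = 2.56e-11) in IC, 6.0-fold and 6.72-fold lower. With IC it fell by 0.57 ± 0.14 (adjusted p = 0.00815) in DMSO and by 0.74 ± 0.16 (adjusted p = 0.00426) in iBET, in 5 of 5 mice in each, and Ova and IC overlapped in iBET but not in DMSO. In mice A and B alone the log2 fold changes with IC were -0.68 in DMSO and -0.65 in iBET, with adjusted p = 0.0816 and 0.139. Per kb of merged exon, the ratio of P2ry2 to P2ry6 was 0.0522 ± 0.00757 in DMSO Ova, 0.13 ± 0.0182 in DMSO IC, 0.491 ± 0.119 in iBET Ova and 1.21 ± 0.185 in iBET IC (SD, n = 5). P2ry6, the gene with the highest level per kb of merged exon of the 9 in DMSO Ova, was below P2ry2, the lowest of the 9 there, in 5 of 5 mice in iBET IC on that scale, although the ranges of the 2 genes overlapped. Per kb of RefSeq mRNA exons P2ry2 was the higher in 3 of 5 mice and P2ry6 in 2. The outer neighbours did not pass the test for iBET: Arhgef17 next to P2ry6 had -0.81 (adjusted p = 0.0946) and Fchsd2 next to P2ry2 had -0.19 (adjusted p = 0.589) in Ova. Arhgef17 was low, at 0.65 CPM on average in DMSO Ova and 0.36 CPM in iBET Ova, and was lower with iBET in 4 of 5 mice.

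**Figure D3:**
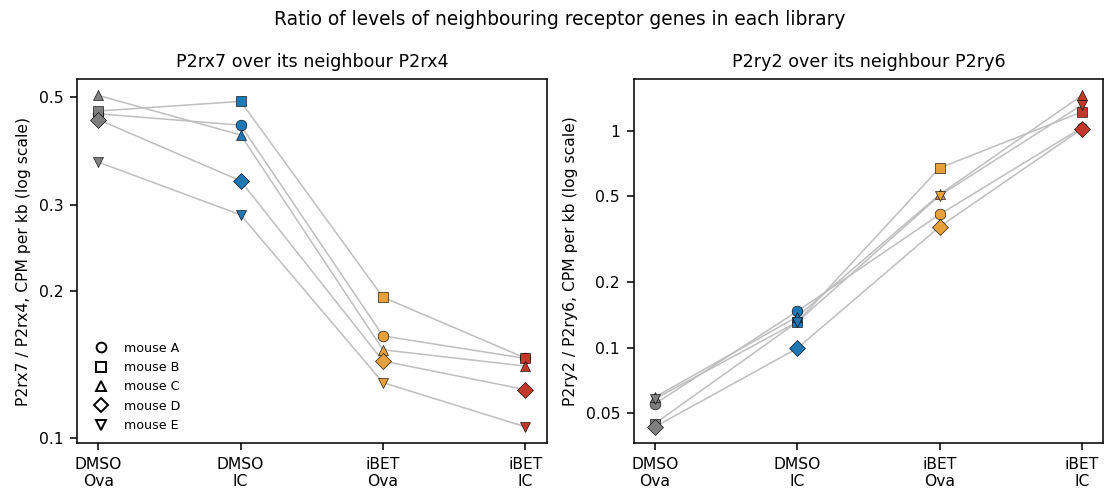
Ratio of levels (CPM per kb of merged exon, log y axis) of P2rx7 to P2rx4 (left) and of P2ry2 to P2ry6 (right) in each library, by group; grey lines join libraries of 1 mouse. The first ratio is 0.286 to 0.503 in DMSO and 0.105 to 0.194 in iBET, and the second goes from 0.0434 to 0.0593 in DMSO Ova up to 1.02 to 1.45 in iBET IC.

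P2ry14, the Gi-coupled receptor of UDP-glucose and UDP, had the lowest log2 fold change with iBET of the 9 genes. It lies at chr3:59113855-59153618 on the minus strand, inside Med12l of the opposite strand, with which it shares no exon bases. Whether reads were counted by strand is not given, so reads of these overlapping genes cannot be told apart with certainty. It measured 162, 81.5, 92.2, 71.2 and 106 CPM in DMSO Ova and 18.9, 14.2, 11.4, 10.4 and 12.7 CPM in iBET Ova. In IC it measured 159.7, 139, 127, 99.0 and 114 CPM with DMSO and 20.5, 17.8, 16.2, 14.3 and 16.5 CPM with iBET. Mouse A was highest in each of the 4 groups, and every iBET library was below every DMSO library. The log2 fold change was -2.92 ± 0.21 (adjusted p = 5.84e-10) in Ova and -2.90 ± 0.21 (adjusted p = 5.3e-10) in IC, and 0.979% and 0.995% of the genes tested had a lower one. With IC it was 0.32 (adjusted p = 0.259) in DMSO, higher in 4 of 5 mice, and 0.34 (adjusted p = 0.316) in iBET, higher in 5 of 5. In the fit with the mouse as a block these changes, both 0.35, passed with adjusted p = 0.00403 and 0.0148, and without mouse A the change in DMSO was 0.45 with adjusted p = 0.021. Med12l itself was low, at 1.89 CPM on average in DMSO Ova and 0.685 CPM in iBET Ova, and fell by 1.45 (adjusted p = 0.000563). The neighbouring receptor gene Gpr171 fell by 1.04 with iBET in Ova and by 0.90 in IC.

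Entpd1, which lies at chr19:40612366-40741602 on the plus strand, fell with iBET, whereas the values with IC were higher. It measured 79.3, 74.6, 55.9, 72.7 and 70.4 CPM in DMSO Ova and 105, 89.4, 79.7, 94.4 and 83.3 CPM in DMSO IC. With iBET it measured 32.2, 28.2, 20.9, 23.8 and 20.9 CPM in Ova and 37.4, 30.9, 22.8, 27.7 and 24.4 CPM in IC. The log2 fold change with iBET was -1.48 ± 0.14 (adjusted p = 2.63e-08) in Ova and -1.65 ± 0.14 (adjusted p = 5.95e-09) in IC. With IC it was 0.36 ± 0.14 (adjusted p = 0.0699) in DMSO, where the groups did not overlap, and 0.19 ± 0.14 (adjusted p = 0.437) in iBET, where they did, higher in 5 of 5 mice in each. With the block on the mouse the rise passed in DMSO (adjusted p = 0.000179) and in iBET (adjusted p = 0.0416), and without mouse A it passed in DMSO (0.34, adjusted p = 0.0481). Tctn3, 133 bases away on the other strand, rose with iBET by 0.56 in Ova and by 0.51 in IC. Ccnj, the neighbour on the other side, fell with iBET, with -0.50 in Ova and -0.57 in IC.

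Among the adenosine receptors, Adora2a and Adora3 fell with iBET by more than 1 on the log2 scale, and Adora2b by less. Adora2a (chr10:75316877-75334784, plus strand), a Gs-coupled receptor of high affinity, measured 7.93, 6.58, 27.9, 22.9 and 21.1 CPM in DMSO Ova and 1.74, 1.84, 7.76, 4.32 and 9.25 CPM in iBET Ova. It measured 8.80, 11.3, 29.6, 24.3 and 27.8 CPM in DMSO IC and 1.67, 1.97, 9.37, 5.63 and 7.29 CPM in iBET IC. In every group mice A and B were low and mice C, D and E high, from 6.58 to 7.93 CPM against 21.1 to 27.9 CPM in DMSO Ova and from 1.74 to 1.84 CPM against 4.32 to 9.25 CPM in iBET Ova. The labels do not say how the mice differed. The dendritic cell markers Ccr7 (209 to 228 against 592 to 681 CPM in DMSO Ova) and Zbtb46 (12.0 to 12.9 against 31.9 to 33.7 CPM) and the eosinophil marker Epx (1.72 to 1.89 against 8.24 to 11.9 CPM) were divided in the same way, and their part in the level of Adora2a was not tested. DMSO and iBET libraries overlapped although the level was lower with iBET in 5 of 5 mice in both stimuli. The log2 fold change was -1.80 ± 0.55 (SE, adjusted p = 0.00882) in Ova and -2.01 ± 0.55 (adjusted p = 0.00421) in IC. It was -2.03 in mice A and B alone and -1.71 in mice C, D and E alone in Ova (adjusted p = 0.000104 and 2.03e-05). Without mouse D, the value in Ova was -1.63 with adjusted p = 0.0587, and with the mouse as a block it was -1.83 with adjusted p = 2.81e-09. With IC the log2 fold change was 0.24 (95% interval -0.83 to 1.30) in DMSO and 0.03 (-1.16 to 1.22) in iBET, and neither passed. With the mouse as a block these were 0.27 ± 0.13 (SE, adjusted p = 0.108) and 0.04 ± 0.165 (adjusted p = 0.883), and again neither passed. The level was higher with IC in 5 of 5 mice in DMSO and in 3 of 5 in iBET. Of the neighbours of Adora2a, Specc1l rose with iBET by 0.65 in Ova and by 0.73 in IC. Gucd1 fell, with -0.32 in Ova and -0.35 in IC.

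Adora2b (chr11:62248984-62266453, plus strand), a Gs-coupled receptor of low affinity, measured 14.0, 14.2, 14.2, 11.7 and 12.3 CPM in DMSO Ova and 10.2, 9.81, 10.9, 9.91 and 9.92 CPM in iBET Ova. In IC it measured 15.8, 15.9, 12.8, 10.4 and 12.8 CPM with DMSO and 9.07, 9.96, 9.37, 8.78 and 8.90 CPM with iBET. The groups were close but did not overlap, and with iBET the level fell by 0.39 ± 0.10 (adjusted p = 0.00226) in Ova and by 0.55 ± 0.10 (adjusted p = 8.35e-05) in IC, in 5 of 5 mice in each. With IC it was 0.03 (-0.18 to 0.23) in DMSO and -0.14 (-0.35 to 0.07) in iBET. Its right-hand neighbour Zswim7, 771 bases away on the other strand, rose with iBET by 0.79 in Ova and by 0.73 in IC. Specc1, the neighbour on the left on the same strand, fell with iBET, with -0.78 in Ova and -0.57 in IC.

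Adora3 (chr3:105870858-105908926, plus strand), a Gi-coupled receptor, was the lowest of the 9 genes per kb in 3 of the 4 groups, with 35 to 196 counts in a library. It measured 7.40, 6.11, 5.84, 5.78 and 6.82 CPM in DMSO Ova and 3.45, 4.67, 4.43, 3.33 and 5.28 CPM in DMSO IC. With iBET it measured 3.64, 2.28, 2.39, 1.98 and 2.85 CPM in Ova and 2.40, 1.93, 1.81, 2.10 and 2.17 CPM in IC. The level fell with iBET by 1.27 ± 0.16 (adjusted p = 1.13e-06) in Ova and by 1.02 ± 0.16 (adjusted p = 2.31e-05) in IC. It fell with IC by 0.59 ± 0.15 in DMSO (adjusted p = 0.0104), in 5 of 5 mice and without overlap, and the value in iBET was -0.34 (adjusted p = 0.203). In mice A and B alone and in mice C, D and E alone the change with IC in DMSO was -0.75 (adjusted p = 0.14) and -0.48 (adjusted p = 0.0569). Adora3 shares 779 exon bases with Tmigd3 on the same strand, so the split of reads between them is uncertain. Tmigd3 moved with it, by -1.36 in Ova and -1.15 in IC with iBET and by -0.56 with IC in DMSO (adjusted p = 0.0328). The neighbour I830077J02Rik also fell with iBET, with -2.08 in Ova and -1.41 in IC. Rap1a on the other side did not pass, with -0.10 in Ova and -0.23 in IC. As a share of the summed level per kb of merged exon of the 3 adenosine receptors, Adora2b made up 51.2% ± 12.5 in DMSO Ova and 71.4% ± 9.39 in iBET Ova, and 50.1% ± 15.0 in DMSO IC and 70.0% ± 10.8 in iBET IC (SD, n = 5). The ranges over mice overlapped, but within a mouse this share was higher with iBET in 5 of 5 mice in both stimuli. Adora2a made up 36.6% ± 15.3 and 19.5% ± 11.1 with Ova, lower with iBET in 5 of 5 mice.

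**Figure D4:**
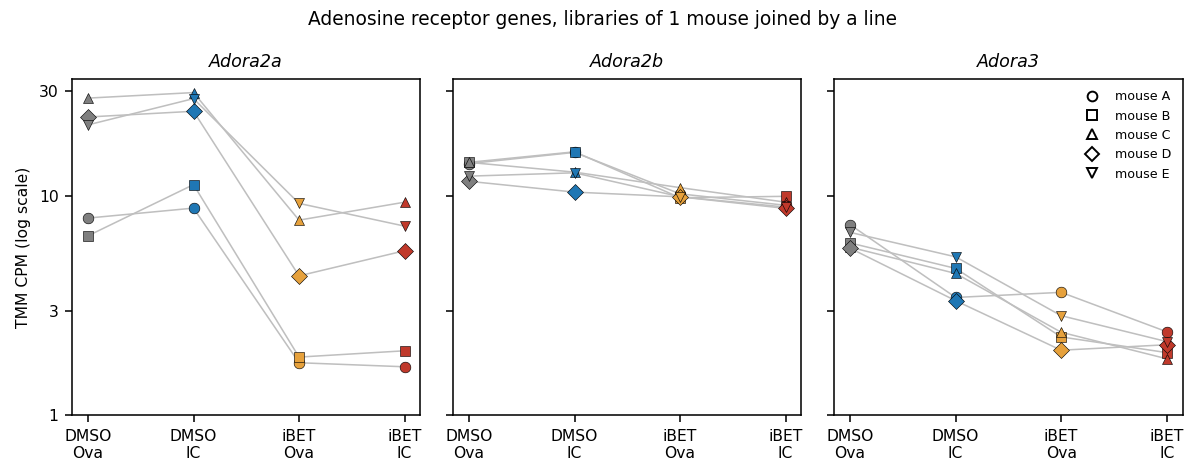
TMM-scaled CPM (log y axis) of the adenosine receptor genes in each library, by group; lines join the 4 libraries of 1 mouse. Adora2a separates mice A and B (6.58 to 11.3 CPM in DMSO) from mice C, D and E (21.1 to 29.6 CPM in DMSO) in each group, which Adora2b and Adora3 do not, and all mice go down with iBET for Adora2a.

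None of the 9 genes passed the interaction test, which asks whether the effect of iBET differed between IC and Ova. The count was 0 of 9 by edgeR, with and without the mouse as a block, and 0 of 9 at an unadjusted p under 0.05, beside 0.0401% of all genes (5 of 12465), 0.818% with the mouse as a block and 4.36% at an unadjusted p under 0.05. DESeq2 also called 0 of 9. Without the mouse as a block, the widest interval was that of Adora2a, -0.21 (-1.81 to 1.39), and the narrowest that of P2rx4, 0.06 (-0.19 to 0.31). The width for Adora2a includes the difference between mice, and with the mouse as a block its value was -0.23 ± 0.21 (SE). Adora2b had -0.16 (-0.46 to 0.13) and Entpd1 -0.17 (-0.57 to 0.24), and both differences were negative in 5 of 5 mice. A p that misses the threshold does not show that the effects are alike.

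A list of 12 other purine receptor genes included P2ry10, a receptor only related to the P2Y family. Of these 12, 6 were tested, P2ry10 among them, and the rest of those in the table had at most 8 counts in any library. With iBET in Ova, 6 of 6 passed, 5 lower and 1 higher, and in IC 4 were lower and 1 higher, beside 28.9% of all genes lower and 27.7% higher in Ova and 29% and 27.1% in IC. P2ry13 and P2ry12, Gi-coupled ADP receptors, fell by 3.27 (adjusted p = 2.84e-09) and 2.31 (adjusted p = 4.05e-07) on the log2 scale in Ova and by 3.36 and 2.08 in IC. The mean of P2ry13 was 19.1 CPM in DMSO Ova and 1.98 CPM in iBET Ova. P2rx1, an ATP-gated channel, fell by 1.52 in Ova and 1.43 in IC. P2ry1, the Gq-coupled ADP receptor, rose by 0.84 (adjusted p = 6.17e-06) in Ova and by 0.56 (adjusted p = 0.000549) in IC, from means of 10.8 and 10.5 CPM to 19.4 and 15.5 CPM. With IC against Ova, 0 of 6 passed in DMSO and in iBET by edgeR, beside 20.3% and 11.8% of all genes. The mouse as a block gave 2 in each, both lower, beside 38.1% and 28.9% of all genes. The median log2 fold change of the 6 was -1.39 with iBET in Ova, against -0.00287 over all genes.

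Of 27 genes of nucleotide release, breakdown and uptake, 19 were tested and 11 passed with iBET in Ova, 7 higher and 4 lower (57.9%, near the 56.6% of all genes), with the same numbers in IC. With the mouse as a block 17 passed in Ova, 8 higher and 9 lower, and 16 in IC, 7 higher and 9 lower, beside 68.7% and 68% of all genes. Entpd5 and Entpd6, nucleoside diphosphatases of the secretory pathway, rose by 1.51 (adjusted p = 1.18e-10) and 0.72 (adjusted p = 3.23e-07) in Ova, and Pnp, which breaks down inosine, rose by 0.40 (adjusted p = 0.000253). Slc28a2, a concentrative nucleoside transporter, fell by 1.12 (adjusted p = 0.000378). At the cell surface, Nt5e (CD73), which makes adenosine from the AMP that Entpd1 yields, fell by 0.95 in Ova (adjusted p = 0.0186) and had -0.59 (adjusted p = 0.134) in IC. Cd38, an ectoenzyme that consumes NAD, fell by 0.86 in Ova and 1.25 in IC. With IC, 3 of 19 passed in DMSO (the ATP release channel Panx1 with 0.47, Entpd4 with -0.41 and Entpd6 with -0.29) and 1 of 19 in iBET (the vesicular nucleotide transporter Slc17a9 with -0.63), beside 20.3% and 11.8% of all genes. With the mouse as a block 11 and 4 passed, beside 38.1% and 28.9% of all genes.

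Of 25 genes of G proteins and cAMP signalling, 23 were tested and 12 passed with iBET in Ova, 6 higher and 6 lower (52.2%, beside 56.6% of all genes), with the same numbers in IC. Gna15, the Gq-class alpha subunit of blood cells, fell by 1.69 (adjusted p = 9.7e-11) in Ova, from a mean of 86.2 to 26.6 CPM. Adcy7, an adenylyl cyclase of leukocytes, fell by 1.01 (adjusted p = 8.44e-08), and Pde4d, a cAMP phosphodiesterase, by 1.19 (adjusted p = 1.36e-06). Pde7a, another cAMP phosphodiesterase, rose by 0.55 (adjusted p = 3.25e-06). Gnas, the Gs alpha subunit through which the Adora2a and Adora2b receptors act, had 0.08 with iBET in Ova (adjusted p = 0.204) and rose with IC by 0.22 in DMSO (adjusted p = 0.00598) and by 0.23 in iBET (adjusted p = 0.00688). With IC 3 of 23 passed in DMSO and 4 in iBET, beside 20.3% and 11.8% of all genes. The mouse as a block gave 11 and 7, beside 38.1% and 28.9% of all genes. Adcy7 fell with IC by 0.61 in DMSO and by 0.35 in iBET, and Gna13 rose by 0.38 and 0.33.

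Of 10 partners of P2X7, 7 were lower with iBET in Ova and 8 in IC, and none was higher, beside 28.9% of all genes lower and 27.7% higher in Ova and 29% and 27.1% in IC. Nlrp3, the inflammasome sensor, fell by 3.38 (adjusted p = 1.61e-11), Pycard, its adaptor ASC, by 1.31 (adjusted p = 4.49e-13), Gsdmd, the pore-forming effector of pyroptosis, by 0.98 (adjusted p = 2.27e-10) and Casp1 by 0.78 (adjusted p = 1.52e-06) in Ova. Kcnk6 (TWIK2), a potassium channel, fell by 1.62 in IC (adjusted p = 5.64e-07). Nek7, which binds NLRP3, had -0.05 (adjusted p = 0.609) and Ano6, a scramblase, had -0.13 (adjusted p = 0.402), and neither passed in IC. With IC, 4 of 10 passed in DMSO and 2 in iBET, beside 20.3% and 11.8% of all genes. Il1b rose by 1.45 in DMSO (adjusted p = 0.00216) and by 2.15 in iBET (adjusted p = 0.000238).

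**Figure D5:**
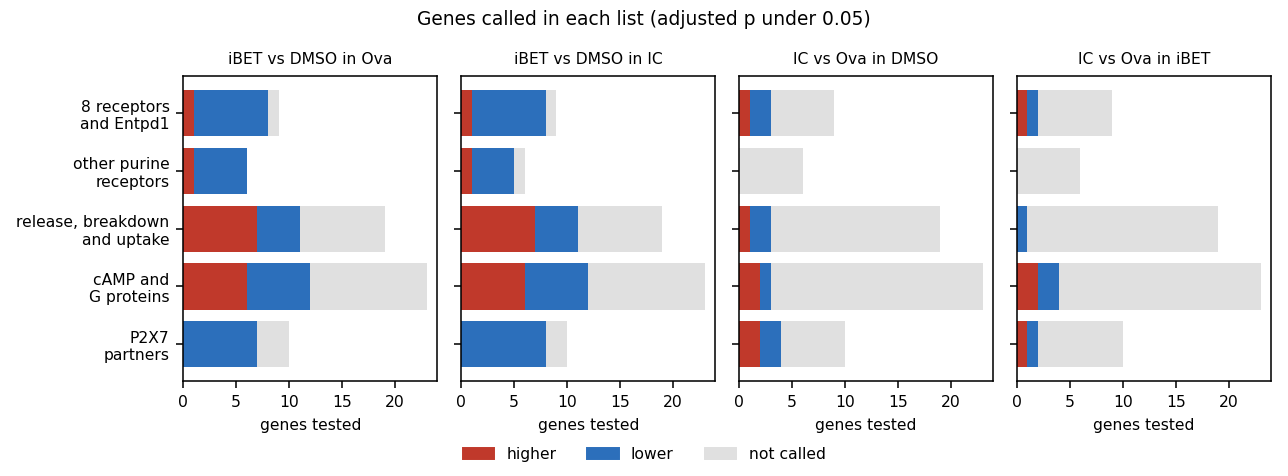
Number of genes tested (x axis) in each list that were higher (red), lower (blue) or did not pass an adjusted p of 0.05 (grey), in the 4 comparisons. The P2X7 partners and the receptor lists are mostly blue with iBET, 7 of 10 and 5 of 6 lower in Ova for the former and the other purine receptors, and in Ova the release list holds 7 genes that were higher and 4 that were lower and the cAMP list 6 of each.

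Over the 20 libraries, the log2 CPM of P2rx7, P2ry6, P2ry14 and Entpd1 followed each other, with a Pearson r between 0.904 (P2ry6 and Entpd1) and 0.972 (P2ry14 and Entpd1), while P2ry2 had r = -0.681 with P2ry6 and P2rx4 had r = 0.017 with P2ry2. These coefficients describe 20 libraries that share mice, treatment groups and scaling. Among all other genes tested, those most like each gene by Pearson r were Fcgr1 (0.99) and C5ar2 (0.982) for P2rx7, March1 (0.995) and Irgc1 (0.991) for P2ry14, Prr15 and Tifab (both 0.989) for P2ry6, and Creg2 and Nras (both 0.99) for Entpd1. For Adora2a they were Adcy6 (0.987), another gene of the cAMP list, and Gm13546 (0.985). Adcy6 had the same division of mice, from 33.0 to 35.7 CPM in mice A and B and from 104 to 136 CPM in mice C, D and E in DMSO Ova. P2ry2 was most like Tollip (0.963) and Eaf1 (0.96), Adora3 like Tmigd3 (0.965) and Nagk (0.955), Adora2b like Cd33 (0.931) and Agpat3 (0.92), and P2rx4 like Alox5ap (0.927) and Hexa (0.905).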

How the data were processed

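RNA-seq was analysed from the deposited files of 20 BMDC libraries, 5 mice in each of 4 groups. Per the methods and labels, the authors trimmed reads with Trim Galore, aligned them to mm10 with HISAT2 and counted reads per gene with featureCounts, and the deposited counts are not normalized; versions, gene annotation and strand setting are not given in the sources used here. A second deposited table holds signal values, which the authors obtained by dividing the counts by 1 DESeq2 size factor per library (checked).

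Genes passing filterByExpr (12465 of 24421) were fitted with edgeR 4.0.16 (R 4.3.3), using TMM scaling and the quasi-likelihood test with the 4 groups as the factor and all 20 libraries. P-values were Benjamini-Hochberg adjusted over the genes tested, with a threshold of 0.05. Errors are SD over 5 mice for levels and SE for fold changes. The labels name the mouse of each library. After the mean of each group was subtracted, libraries of the same mouse deviated together (mean r 0.524 over 30 pairs, lowest 0.307). The numbers thus pair the samples, and the mouse was fitted as a block in an alternative fit. For different mice the mean was -0.127 over 120 pairs. Subtracting the group mean makes this value negative whenever libraries of a mouse deviate together, so it is no separate support. Other alternatives were DESeq2 1.42.0, other scalings, svaseq (sva 3.50.0), limma 3.58.1 on the signal, no filter, fewer libraries and subsets of mice. Gene positions are from GENCODE M21, which held 23384 of the symbols. Scripts were tested on simulated data.

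The 9 genes and the gene lists were chosen with earlier results of these data known. Named genes were the 9, at most 4 genes per list and comparison with the smallest adjusted p plus those whose role was needed, the nearest tested neighbours, and for each gene the 2 others with the highest correlation.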

Additional observations from a re-analysis of the deposited data

How the results depend on the processing

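Over 711 pairs of a gene's fold change and an alternative, 659 kept their direction and their side of the threshold, 6 lost the call, 19 gained it and 27 changed sign. None of the 27 had an adjusted p under 0.05 in either fit, and the largest absolute value among them was 0.125. With the mouse as a block, 6 of the 9 genes passed with IC in DMSO and 5 in iBET, by edgeR and by DESeq2 alike. The block raised the numbers in the lists to 17 for release, breakdown and uptake with iBET in Ova, and with IC to 2 for other purine receptors in DMSO and in iBET, to 11 and 4 for release, breakdown and uptake, and to 11 and 7 for cAMP and G proteins. The block also raised the share of all genes, to 68.7% with iBET in Ova, and with IC to 38.1% in DMSO and 28.9% in iBET. It ended no call among the 9 genes. Leaving out each mouse gave 3 to 5 of the 9 with IC in DMSO, the 5 being without mouse A. Mice A and B alone gave 1 and 0 with IC in DMSO and in iBET, and a further threshold of 1 on the size of the log2 fold change gave 0 and 0.

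The log2 fold changes that changed sign were those of P2rx4 with iBET, at 0.0386 in Ova (mice C, D and E) and 0.0302 in IC (mice A and B). With IC in DMSO, P2rx4 had -0.103 by library size alone, -0.0266 with surrogate variables, -0.000751 with only the 10 libraries compared, -0.125 in mice A and B, and -0.027 to 0.0603 as each mouse was left out. Adora2b had -0.084 by library size, -0.0655 in mice C, D and E, and -0.0135 to 0.0759 as each mouse was left out. With IC in iBET, P2rx4 had -0.0471 by library size and -0.00204 with surrogate variables, and Adora2a had -0.0749 by library size and -0.0968 to 0.24 as each mouse was left out. In the interaction, P2rx7 had -0.0144 with surrogate variables and -0.0157 in mice A and B, P2ry6 had 0.0358 and P2ry14 -0.0677 in mice A and B, and P2rx4 had -0.101 in mice C, D and E. As each mouse was left out, the interaction ran from -0.0303 to 0.105 for P2rx4, from -0.00233 to 0.0668 for P2rx7, from -0.0426 to 0.12 for P2ry14 and from -0.413 to 0.0636 for Adora2a. The cause was not tested.

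Over all genes, the threshold of 1 on the log2 fold change left 1865 and 1867 genes with iBET in Ova and IC (7057 and 6990 without it), and 184 and 101 with IC in DMSO and iBET. With IC in DMSO (2531 genes), the block gave 4755, DESeq2 with the block 4611, surrogate variables 4062, mice A and B 500, and leaving out mouse C or D 1180 or 1418. With IC in iBET (1474 genes) the same settings gave 3601, 3594, 3102, 296, and 643 or 714, leaving out mouse B gave 917 and library size alone 2343. The interaction (5 genes) ranged from 0 to 2 as each mouse was left out and gave 102 with the block, 25 with DESeq2, 184 with DESeq2 and the block, 47 with surrogate variables, 0 in mice A and B, 13 in mice C, D and E, and 3 at the fold threshold. Counting limits bear most on Adora3 and, in the iBET libraries of mice A and B, on Adora2a.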

Other observations

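The division of mice seen for Adora2a held in all 4 groups for 7.9% of the genes tested, for 6 of 23 genes of the cAMP list and for 6 of 10 dendritic cell markers. It also held for 3 of 6 genes of the list of other purine receptors (P2rx1, P2rx5 and P2ry10). The genes named here were chosen after their values were seen. Pde4b, a cAMP phosphodiesterase, lay between 28.6 and 29.6 CPM in mice A and B and between 58.9 and 71.5 CPM in mice C, D and E in DMSO Ova, and between 13.2 and 13.9 CPM and between 34.8 and 40.4 CPM in iBET Ova. P2ry10, a receptor related to the P2Y family, lay between 11.1 and 14.3 CPM in mice A and B and between 30.1 and 35.0 CPM in mice C, D and E in DMSO Ova, and between 6.22 and 6.99 CPM and between 14.5 and 15.6 CPM in iBET Ova. Adcy6 lay between 9.38 and 11.7 CPM and between 32.7 and 43.4 CPM in iBET Ova. The ranges of the mice did not overlap in any of the 4 groups for these 3 genes or for Adora2a. Markers of dendritic cells, macrophages, eosinophils, neutrophils, mast cells and erythroid cells also differ between the same mice, and their part was not tested. In the opposite direction, with mice A and B higher, stood 4 of the 19 genes of release, breakdown and uptake, beside 7.24% of all genes. Nt5e was one of them, at 71.8 to 81.2 CPM against 35.4 to 45.2 CPM in DMSO Ova.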
